A study of Mus musculus with 2 samples.

Results

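The miRNAs miR-191, miR-425, miR-423, miR-186 and miR-361 are often used as normalizers when other miRNAs are measured, and they are called reference miRNAs here. All precursor entries that carried 1 of these 5 names, without regard to the arm, were taken from the small RNA tables of embryonic day 9.5 (E9.5) mouse hearts. The rule gave 6 of the 620 precursor entries listed in either replicate, and all 6 were among the 471 entries listed in both. The names chose the members and no read count served as a filter, but the names were chosen with earlier results of these data known. MiR-186 was listed at 2 overlapping entries and the other 4 names at 1 entry each.

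Both samples were WT hearts of the C57BL/6 strain at E9.5 and formed a single group of 2 replicates. Total RNA was made into small RNA libraries and sequenced as single-end reads of 50 nt. The mature reads of a table summed to 4942257 for replicate 1 and 4806179 for replicate 2, so that the floor of 3 reads was 6.07e-05% and 6.24e-05% of mature reads. The labels do not say whether the replicates came from separate litters or how many hearts were pooled, so each p-value compares the reads of these 2 libraries and covers counting error only. Heart muscle miRNAs such as miR-1a and miR-133a held 22.8% and 23.7% of mature reads. These sums count miR-1a and miR-133a at 2 entries each, with equal shares. Each entry of miR-1a had 9.973% and 10.48%, and each of miR-133a 1.229% and 1.188%. Of the 6 miRNAs of that marker list, 5 were listed in both replicates, and miR-208a-3p in replicate 1 only. The smooth muscle markers miR-143-3p and miR-145a-5p held 7.94% and 6.82%, the endothelial marker miR-126a-3p 2.90% and 2.87%, and 3 of 5 white blood cell markers 0.0118% and 0.0127%. In whole hearts, fewer cells of a type and less RNA per cell cannot be told apart.

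A miRNA is cut from a hairpin precursor by Drosha with DGCR8 and then by Dicer, which leaves a short duplex of the 5p and the 3p arm. An Argonaute protein usually keeps more of 1 arm than of the other, and the bases after the first, the seed, guide it to target mRNAs. A normalizer has to be present at a steady level in every sample. The levels of the reference miRNAs, the ratios among them and the use of their arms were therefore compared between the replicates. With a single group, this covers the steadiness between these libraries, and steadiness across conditions, stages or tissues was not tested.

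The main product of each reference miRNA is shown because the counts below refer to it. These are the consensus sequences of the reads, the same in both replicates, with the seed (nucleotides 2 to 8) in capitals.
miR-423-3p: aGCUCGGUcugaggccccucag
miR-191-5p: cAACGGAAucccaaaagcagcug
miR-361-3p: cCCCCAGGugugauucugauuug
miR-186-5p: cAAAGAAUucuccuuuugggc
miR-425-5p: aAUGACACgaucacucccguugag

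The opposite arms of 3 of these hairpins were also abundant, and they are shown because their share was compared between the replicates.
miR-423-5p: uGAGGGGCagagagcgagacuu
miR-361-5p: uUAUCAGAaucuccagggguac
miR-425-3p: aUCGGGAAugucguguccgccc

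The 10 products of the 5 hairpins had 10 distinct seeds, and no other entry in the tables shared any of them. The consensus start of miR-186-3p differed between the replicates, and its consensus seed from replicate 1 was the one compared. In the RefSeq mouse miRNAs (GRCm38.p6), the seed of miR-423-5p was shared with miR-6921-5p and that of miR-425-5p with miR-489-3p. MiR-191 and miR-425, which lie close to each other, thus have no seed in common. By consensus, none of the 5 main products began with U, whereas 49.5% of the 471 entries listed in both replicates did. The RefSeq form of miR-361-3p starts 1 nt earlier and begins with U. GC content of the 5 main products ran from 42.9% in miR-186-5p to 68.2% in miR-423-3p, and the median over the 471 entries was 47.8%.

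MiR-423-3p was the most abundant reference miRNA. Replicate 1 had 13171 mature reads of it and replicate 2 had 14608, and its share was 0.285% ± 0.0265 (SD, n = 2), at rank 55 by mean share. MiR-191-5p had 6403 reads in replicate 1 and 7966 in replicate 2, or 0.148% ± 0.0256 (SD, n = 2), at rank 74. Both were higher in replicate 2, while the 3 less abundant reference miRNAs were slightly lower there.

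MiR-361-3p had 3121 reads in replicate 1 and 2932 in replicate 2, or 0.0621% ± 0.00152 (SD, n = 2), at rank 117. MiR-186-5p had 2943 reads in replicate 1 and 2733 in replicate 2, or 0.0582% ± 0.00190 (SD, n = 2), at rank 127. The 95% Wilson intervals of these neighbours overlapped in replicate 1, at 0.0610% to 0.0654% for miR-361-3p and 0.0574% to 0.0617% for miR-186-5p, and also in replicate 2. The 95% counting interval of the ratio of miR-186 to miR-361 nevertheless lay below 1 in both. It was 0.897 to 0.992 in replicate 1 and 0.885 to 0.982 in replicate 2. MiR-425-5p was the lowest, with 1331 reads in replicate 1 and 1285 in replicate 2, or 0.0268% ± 1.38e-04 (SD, n = 2), at rank 178. The order of the 5 miRNAs was the same in both replicates, and each step between neighbours in it was larger than the SD of either. Together the 6 entries held 0.605% (replicate 1) and 0.671% (replicate 2) of mature reads, and with miR-186 taken once the sums were 0.546% and 0.614%.

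**Figure D1:**
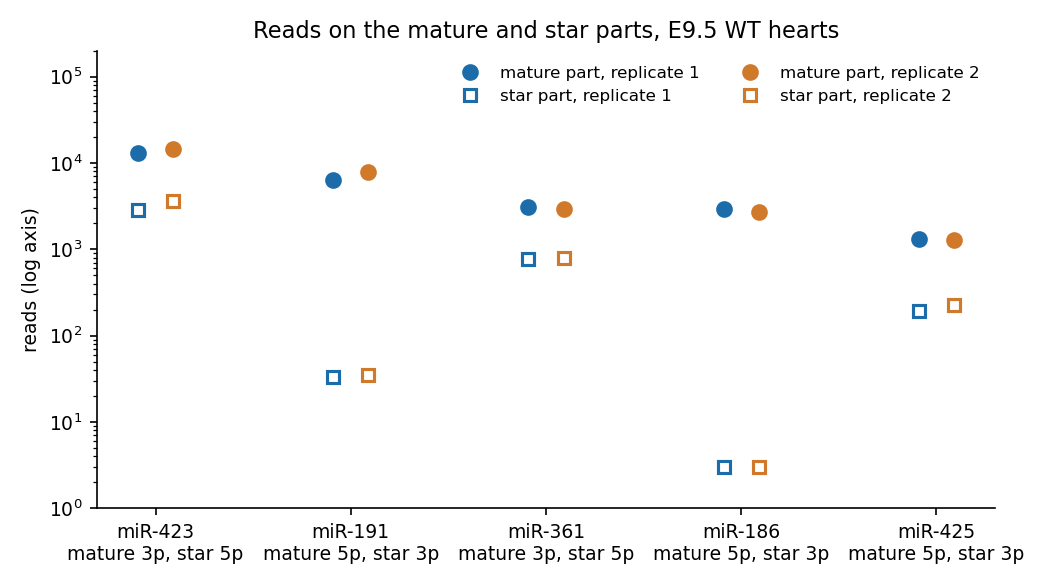
Reads on the mature part (filled circles) and the star part (open squares) of the 5 reference miRNAs in replicate 1 and replicate 2, on a log axis, with miR-186 drawn from its hairpin entry. Mature reads run from 1285 for miR-425-5p to 14608 for miR-423-3p, and the star part of miR-186 has 3 reads in each replicate.

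The entries next to the reference miRNAs in abundance were mostly not separated from them. MiR-423-3p stood between miR-148b-3p (0.290% ± 0.0277) and miR-93-5p (0.284% ± 0.00136, SD, n = 2), and its order against each of them differed between the replicates. MiR-191-5p stood between miR-328-3p and miR-337-5p, and miR-328-3p was above it in both replicates, with 6419 and 8476 reads. MiR-361-3p stood between miR-342-3p and let-7a-5p, miR-186-5p between miR-130b-5p and miR-455-5p, and miR-425-5p between miR-181a-5p and miR-412-5p. None of these 6 entries, nor miR-337-5p, kept its side of the reference miRNA in both replicates.

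The first comparison asked how steady each reference miRNA was between the replicates. Mature reads were scaled by their totals, and each entry was tested with a two-sided exact binomial test, adjusted by Benjamini-Hochberg over the 431 entries that reached a sum of 20 mature reads. Of the 6 entries, 2 were called at an adjusted p of 0.05, both higher in replicate 2, beside 41.1% of all tested entries. MiR-186 counts as 2 of the 6, with the same reads, so that 2 of the 5 names were called. The test gains power with reads, and among the 187 entries with at least 1000 mature reads in each replicate, where all 6 lie, 68.4% were called.

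MiR-191-5p differed most. Its share was 0.130% in replicate 1 and 0.166% in replicate 2, a fold of 1.28 (95% counting interval 1.24 to 1.32), with an adjusted p of 6.6e-48 in the exact binomial test. In the size of the log2 ratio it ranked 169 of the 187 abundant entries, counted from the steadiest. MiR-423-3p was at 0.266% and 0.304%, a fold of 1.14 (1.11 to 1.17), with an adjusted p of 6.1e-27 in the exact binomial test, and ranked 120. In the abundant class, miR-191-5p was thus among the less steady entries.

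The other reference miRNAs were not called. MiR-425-5p was at 0.0269% and 0.0267%, a fold of 0.993 (0.920 to 1.07), with an adjusted p of 0.92 in the exact binomial test, and ranked 7 of the 187. MiR-361-3p was at 0.0631% and 0.0610%, a fold of 0.966 (0.919 to 1.02), with an adjusted p of 0.31 in the same exact test, and ranked 47. MiR-186-5p was at 0.0595% and 0.0569%, a fold of 0.955 (0.906 to 1.01), with an adjusted p of 0.16 in the same exact test, and ranked 58. A p above the threshold does not show that the levels were equal, and the intervals give the changes that counting error allows. All these ranks, also those of miR-191-5p and miR-423-3p, were taken with scaling by totals only. The log2 ratios change with the scaling, as given below, and ranks under other scalings were not taken.

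The median absolute log2 ratio of the 6 entries was 0.067, beside 0.19 over all 431 tested entries and 0.117 over the 187 abundant ones. This gap was seen with scaling by totals. With TMM, DESeq2 size factors and the reference miRNAs the median of the 6 entries was 0.125, 0.128 and 0.142, close to the 0.137, 0.139 and 0.144 of the abundant entries, and that of all tested entries was 0.175, 0.173 and 0.173. With totals, 4 of the 6 entries differed by less than 10% in either direction, or 3 of the 5 names, as did 55.6% of the abundant entries. Another list of miRNAs used as normalizers, among them miR-92a-3p, miR-26a-5p and miR-25-3p, had 22 entries, several of which repeat the same reads, such as those of let-7a-5p and miR-24-3p. With the highest entry of each of its 11 names, the median was 0.165 and 9 were called (81.8%), 7 of them higher in replicate 2, beside 41.1% of all tested entries and 68.4% of the abundant ones. Over all 22 entries the median was 0.165 too, and 17 were called (77.3%). The 22 entries held 11.1% (replicate 1) and 12.3% (replicate 2) of mature reads. MiR-484, the remaining name of the list, had no entry in either replicate.

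**Figure D2:**
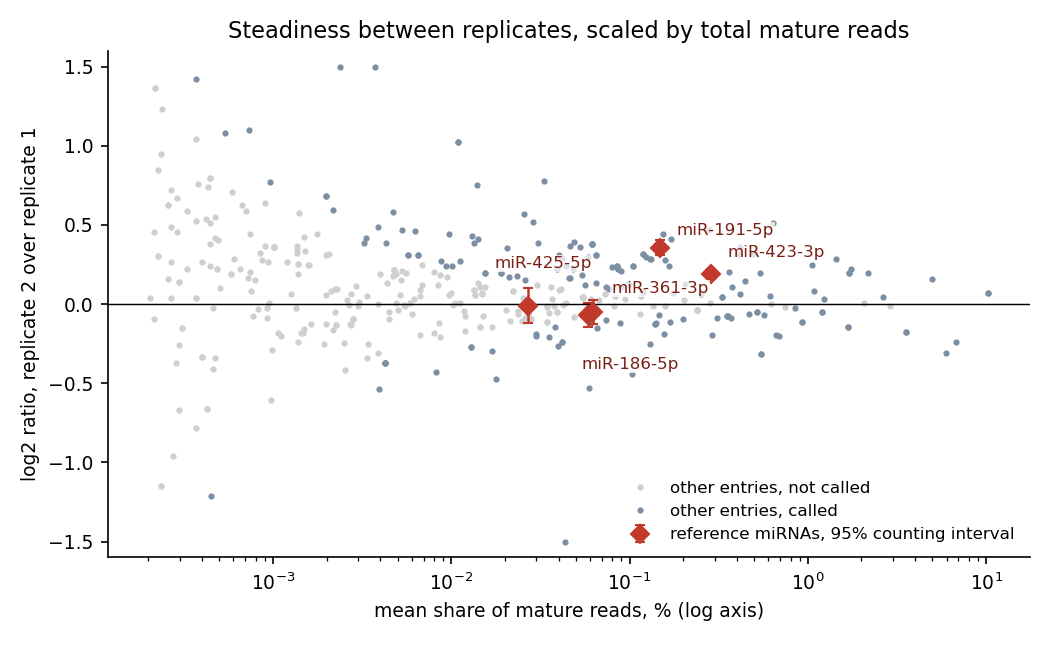
Log2 ratio of replicate 2 over replicate 1 (scaled by total mature reads) against mean share of mature reads on a log axis for 431 entries, with reference miRNAs as diamonds (bars: 95% counting interval) and 3 entries beyond 1.5 drawn at that limit. MiR-425-5p, miR-361-3p and miR-186-5p sit between -0.07 and -0.01, and miR-423-3p and miR-191-5p sit above it.

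MiR-486, a miRNA of erythroid cells and of muscle, moved in the same direction as miR-191-5p and miR-423-3p. The erythroid marker list held 0.326% of mature reads in replicate 1 and 0.406% in replicate 2. In these sums the list counts miR-486 at 3 entries. They had 0.1104%, 0.1065% and 0.1065% in replicate 1 and 0.1359%, 0.1327% and 0.1327% in replicate 2. Of its 4 tested entries, 3 were called, all higher in replicate 2, and all 3 were entries of miR-486, of which those of miR-486b-5p and of 1 of the miR-486a-5p entries had the same counts, 5264 and 6380. Over all tested entries 41.1% were called, 119 of 177 of them higher in replicate 2. The highest of them, for miR-486a-5p, had 5456 reads in replicate 1 and 6534 in replicate 2. MiR-451a, the other tested marker and the one tied most closely to erythroid cells, had 128 and 127 reads. In no entry was miR-144-3p the mature part. MiR-144-5p was listed in replicate 2 only, with 73 reads. The part of blood cells in the levels of miR-191-5p and miR-423-3p was not tested.

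A ratio between 2 reference miRNAs in the same library does not depend on how the libraries are scaled. Over the 10 pairs, the 95% counting interval of the change in the ratio held 0 on the log2 scale for 3 pairs, and all 3 were pairs among miR-425, miR-361 and miR-186. MiR-186 over miR-361 was 0.943 in replicate 1 and 0.932 in replicate 2, a log2 change of -0.02 (-0.12 to 0.09). The other 7 pairs hold miR-191, miR-423 or both. MiR-191 over miR-186 differed most, at 2.18 in replicate 1 and 2.91 in replicate 2, a log2 change of 0.42 (0.33 to 0.51).

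MiR-191 and miR-425 are of interest as a pair because their precursors lie on the same strand 400 bp apart. MiR-191-5p had 4.81 reads for each read of miR-425-5p in replicate 1 (95% counting interval 4.53 to 5.10) and 6.20 in replicate 2 (5.84 to 6.58). The intervals of the replicates did not overlap, and the mean was 5.50 ± 0.982 (SD, n = 2). The log2 change was 0.37 (0.25 to 0.49), so neighbouring precursors did not keep a constant ratio of mature reads between these libraries. With all reads of the precursors the ratio was 4.22 and 5.29.

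**Figure D3:**
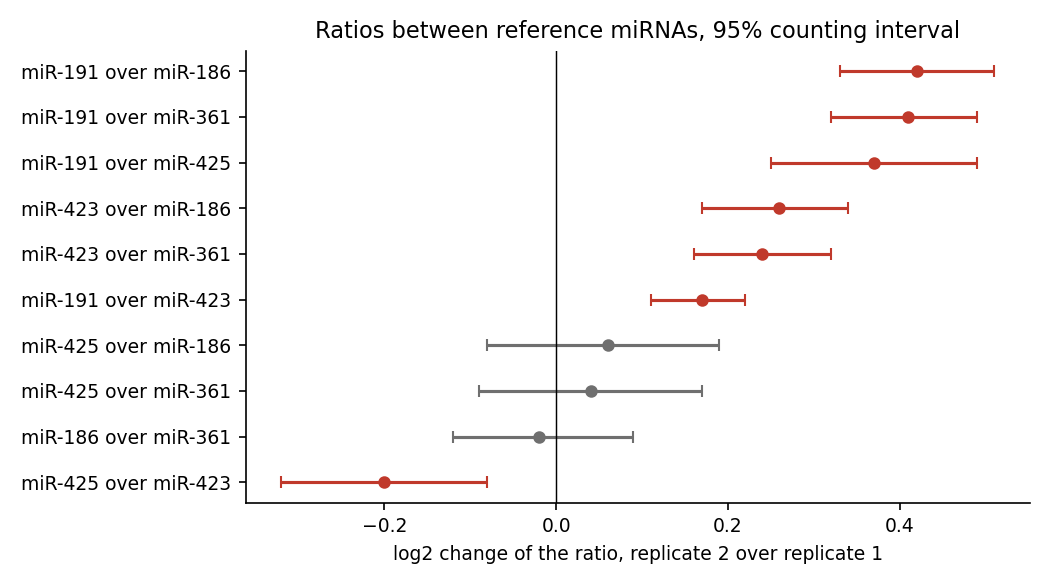
Log2 difference between the replicates (replicate 2 over replicate 1) in the ratio of 2 reference miRNAs for the 10 pairs, with 95% counting intervals as bars. The 3 pairs among miR-425, miR-361 and miR-186 (grey) include 0, and the 7 pairs with miR-191 or miR-423 (red) do not.

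The second comparison asked which arm of each hairpin carried the reads. The tables named the miR-423 and miR-361 entries by the 5p arm but marked their reads as lying on the opposite arm, so that 3p was the major arm of both. Such marks were no exception, and stood at 38.4% of the entries in replicate 1 and 38.0% in replicate 2. For miR-191, miR-425 and miR-186 the major arm was 5p.

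The hairpins differed widely in how one-sided they were. MiR-361-5p had 777 reads in replicate 1 and 787 in replicate 2, a mean of 20.5% ± 0.869 (SD, n = 2) of the reads on both arms. MiR-423-5p had 2857 and 3673 reads, or 19.0% ± 1.60 (SD, n = 2), and miR-425-3p had 195 and 227 reads, or 13.9% ± 1.58 (SD, n = 2). The median over the 190 entries with at least 1000 reads on both arms together in each replicate was 0.879%, and 40 of them (21.1%) had a minor arm of at least 10%. These entries include duplicates without star reads, and over the 166 that scored above 0 in both replicates, a choice made after seeing the data, the median was 1.45% and 39 (23.5%) reached 10%. MiR-361, miR-423 and miR-425 were thus among the entries with a minor arm of at least 10%.

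MiR-191 and miR-186 were one-sided. MiR-191-3p had 33 reads in replicate 1 and 35 in replicate 2, or 0.475% ± 0.0532 (SD, n = 2) of the reads on both arms. MiR-186-3p had 3 reads in each replicate, at the floor of 3 reads, which is 0.102% and 0.110%. The neighbours miR-191 and miR-425 thus differed in arm use, with about 194.0 major reads for each minor read of miR-191 in replicate 1 and 6.83 for miR-425. Reads on the loop were found only at miR-191, with 1 and 3 reads, and the other 5 entries had 0. These counts did not exceed the floor of 3 reads. Over all entries, 10.2% in replicate 1 and 11.1% in replicate 2 had loop reads.

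**Figure D4:**
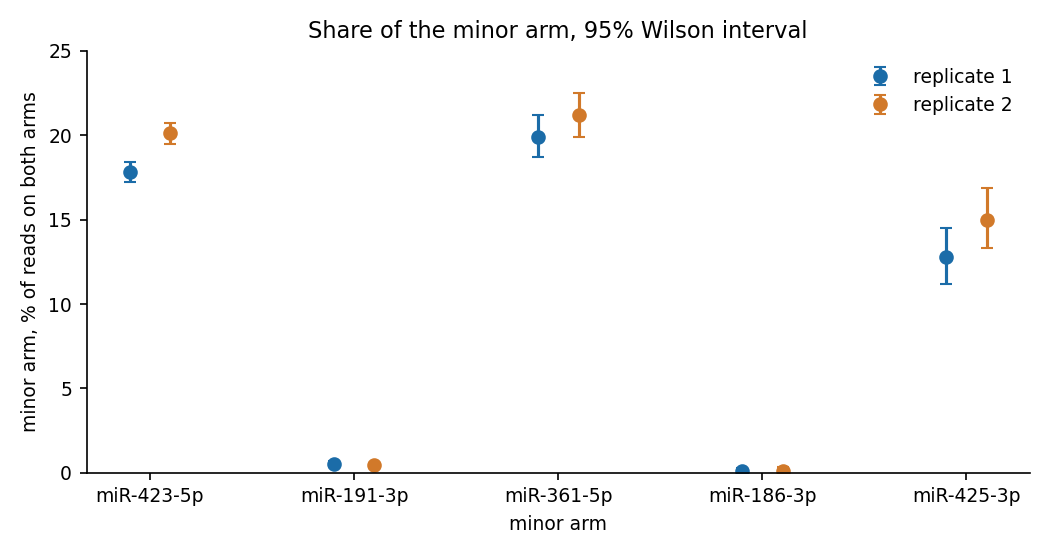
Reads on the minor arm as percent of the reads on both arms in replicate 1 and replicate 2, with 95% Wilson intervals. The intervals of miR-423-5p do not overlap between the replicates, at 17.8% and 20.1%, and those of miR-361-5p and miR-425-3p do.

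Arm use within a hairpin was compared between the replicates with a two-sided Fisher's exact test on mature and star reads, adjusted over 212 entries with at least 10 star reads in sum. Of the 4 reference hairpins tested, 1 was called, beside 17.5% of all tested entries. This was miR-423, whose minor arm held 17.8% of the reads in replicate 1 and 20.1% in replicate 2, with an adjusted p of 1.8e-06 in the exact test. The minor arms of miR-361 (19.9% and 21.2%, adjusted p of 0.54 in the exact test) and miR-425 (12.8% and 15.0%, adjusted p of 0.32 in the exact test) were also higher in replicate 2, but were not called. MiR-191-3p was at 0.513% and 0.437%, with an adjusted p of 0.81 in the exact test.

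The star reads themselves were then tested like the mature reads, over 177 entries with at least 20 star reads in sum. Of the 4 star arms tested, 1 was called, beside 22.6% of all tested entries, and again it was miR-423-5p. Its log2 ratio was 0.40 (95% counting interval 0.33 to 0.47), with an adjusted p of 2.6e-27 in the exact binomial test, compared with 0.19 (0.16 to 0.22) for miR-423-3p. Both arms of miR-423 were therefore higher in replicate 2, and the minor arm by more. MiR-425-3p had a log2 ratio of 0.26 (-0.02 to 0.54), with an adjusted p of 0.22 in the exact binomial test, whereas its major arm was at -0.01.

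The third comparison used the reference miRNAs as normalizers. The geometric mean of the replicate 2 to replicate 1 ratio of mature reads over the 5 miRNAs was 1.03 (95% counting interval 1.01 to 1.05), whereas the ratio of total mature reads was 0.972. TMM of edgeR gave 1.01 and DESeq2 size factors 1.02. With totals, 119 of the 177 called entries (67.2%) were higher in replicate 2, whereas with the reference miRNAs 76 of 182 (41.8%) were. With TMM 86 of 178 and with DESeq2 size factors 78 of 176 were higher in replicate 2. The number of calls moved little, but the direction of the majority turned.

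The calls on the reference miRNAs moved with this choice too. MiR-191-5p and miR-423-3p were called as higher in replicate 2 under all 4 ways of scaling, with log2 ratios of 0.27 and 0.11 even when scaled by the set they belong to. MiR-425-5p was not called under any of them. MiR-361-3p, at -0.05 with totals, and miR-186-5p, at -0.07, were called as lower in replicate 2 under the other 3. There 5 of the 6 entries were called, with miR-186 counted at 2 entries that hold the same reads. Over all 431 tested entries, 41.3% were called with TMM, 40.8% with DESeq2 size factors and 42.2% with the reference miRNAs. The adjusted p of the exact binomial test was 0.0011 to 0.01 for miR-361-3p and 0.00029 to 0.0036 for miR-186-5p under these 3. Scaling by the reference miRNAs sets their own mean log ratio to 0, so that some must lie above it and some below, and the test takes the factor as fixed although it comes from the same reads. Leaving out miR-191 alone brought the factor from 1.03 to 0.983, near the ratio of totals.

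**Figure D5:**
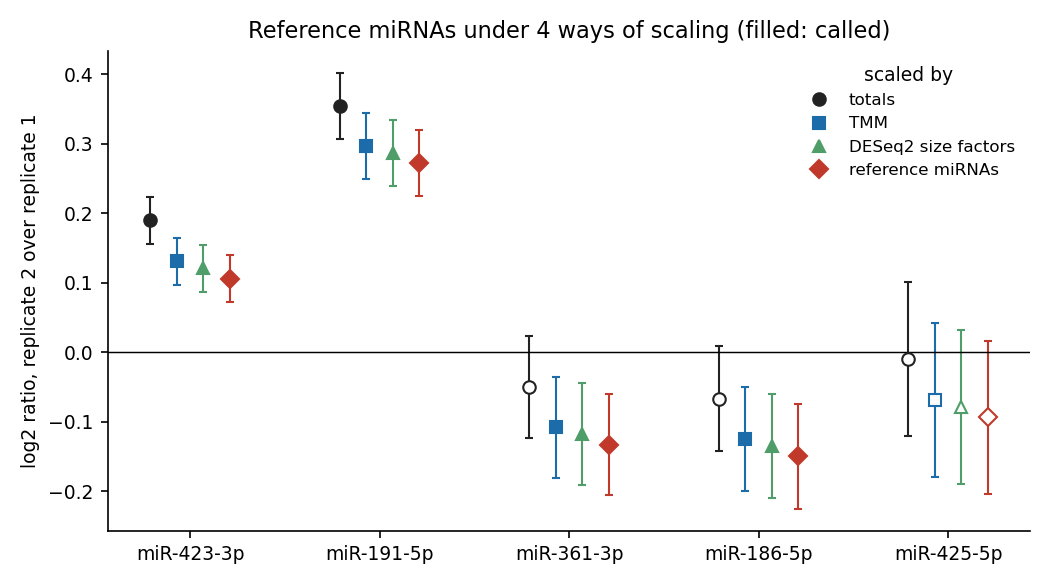
Log2 ratio of replicate 2 over replicate 1 for the 5 reference miRNAs with libraries scaled by totals, TMM, DESeq2 size factors or the reference miRNAs themselves (bars: 95% counting interval, filled symbols: adjusted p under 0.05 in the exact binomial test). MiR-191-5p and miR-423-3p stay above 0 in all 4, and miR-361-3p and miR-186-5p are called only outside the scaling by totals.

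The reference miRNAs lie at 4 places in the genome, given here as positions in mm9 counted from 1. MiR-191 (chr9:108470656-108470719) and miR-425 (chr9:108471120-108471182) are on the plus strand. In GENCODE vM1, miRNA genes set aside, they are outside genes, 1504 bp and 1041 bp before Dalrd3, while RefSeq (GRCm38.p6) places both within Dalrd3. GENCODE also lists a miRNA gene on the opposite strand at miR-191. MiR-423 (chr11:76891589-76891646, minus strand) is in an intron of Ccdc55, which RefSeq calls Nsrp1 and which codes for a splicing regulator. MiR-186 (chr3:157207249-157207310, plus strand) is in an intron of Zranb2, which codes for an RNA-binding protein with zinc fingers, and miR-361 (chrX:110188437-110188497, minus strand) is in an intron of Chm, the gene of Rab escort protein. These 3 miRNAs are on the strand of their host gene.

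The reads of miR-186 were counted at both of its entries. The second entry (chr3:157207222-157207269) overlaps the first, and both take the same bases, 157207249 to 157207269, as the mature part. The precursors are shown because the capitals, the mature part, come first in one and last in the other.
miR-186 hairpin entry: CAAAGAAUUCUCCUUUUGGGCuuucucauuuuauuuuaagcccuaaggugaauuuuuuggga
miR-186 second entry: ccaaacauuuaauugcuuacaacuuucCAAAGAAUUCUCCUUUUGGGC

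The second entry had no star read in either replicate, and its predicted fold was weak. Its minimum free energy was -4.5 kcal/mol, compared with -23.6 for the hairpin entry and a median of -24.3 over the 471 entries, among which it ranked 470. The miRDeep2 score, a log-odds score for a true precursor, was -23 in both replicates, and 1500 and 1300 at the hairpin entry. The other 4 reference entries scored above 0 in both replicates, from 770 for miR-425 to 9300 for miR-423. Mature bases listed at more than 1 entry were found at 51 loci in replicate 1 and 46 in replicate 2, of which 40 and 38 included an entry with a negative score.

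The read ends were compared with RefSeq miRNAs. The consensus of miR-361-3p, the major arm, began 1 nt after the start in RefSeq, which moves the seed by 1 base.
miR-361-3p in the tables: cCCCCAGGugugauucugauuug
miR-361-3p in RefSeq: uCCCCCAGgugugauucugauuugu

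Of 370 entries matched to RefSeq, 331 (89.5%) had the same start and 15 (4.05%) began 1 nt later. The consensus starts of miR-423-3p, miR-191-5p, miR-186-5p and miR-425-5p were those of RefSeq, and so were those of the minor arms miR-423-5p, miR-361-5p and miR-425-3p. The rare arms began later, by 1 nt in miR-191-3p and by 3 nt in replicate 1 and 2 nt in replicate 2 in miR-186-3p, which rests on 3 reads each. The tables give 1 consensus for each arm, so the share of reads with another start is not known from them.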

How the data were processed

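Small RNA of 2 E9.5 WT heart samples was sequenced (HiSeq2500, single-end, 50 nt). After mapping with miRDeep2 to mm9, the authors deposited 1 table per replicate. It gives unnormalized counts of mature, star and loop reads for known precursors, and the deposited miRDeep2 score, which is rounded. Versions of miRDeep2 and miRBase and the adapter trimming are not given in the sources used here.

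The members and lists were chosen with earlier results of these data known. Entries of the replicates were paired where the precursors overlapped on 1 strand by at least 50% of both. Where a table marks the reads as opposite to the named arm, the arm with the reads gives the name. Named were all entries of the 5 miRNAs, entries sharing a seed, the next entry above and below in mean share, and list members as counts or examples.

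With 1 group of 2 samples there is no second group to compare. Exact binomial tests (mature and star reads) and Fisher's exact tests (arms) with Benjamini-Hochberg adjustment were therefore run in scipy 1.17.1. They were first tried on simulated data with counting error only, which does not cover other spread between libraries. Reads have no molecular identifiers, so intervals and floors cover counting error only. Alternative scalings came from edgeR 4.0.16 (TMM) and DESeq2 1.42.0. Folds were predicted with RNAfold 2.7.2. Precursor sequences were checked against NCBIM37, and miRNA sequences and seeds are from the tables or RefSeq (GRCm38.p6). Depth was 4942257 and 4806179 mature reads. Reads at overlapping entries, and at entries elsewhere in the genome with the same mature sequence, count more than once in these sums. With each mature sequence counted once, the sums were 3619523 for replicate 1 and 3499739 for replicate 2.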

Additional observations from a re-analysis of the deposited data

How the results depend on the processing

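Scaling, read type, read minimum, duplicate sequences, the members of the scaling factor and the replicates kept were varied. Of the 6 entries, 5 rather than 2 differed with TMM, DESeq2 size factors or scaling by the reference miRNAs. MiR-186 counts as 2 of these 5, with the same reads. Over all tested entries, 41.1% were called with totals, and 41.3%, 40.8% and 42.2% with these alternatives. The median absolute log2 ratio of the 6 entries rose from 0.067 to 0.125, 0.128 and 0.142. That of all tested entries fell from 0.190 to 0.175, 0.173 and 0.173. The summed share moved from 0.638% to 0.708% with all reads of the precursor or with mature plus star reads, and to 0.794% with each mature sequence counted once, where duplicates leave the total. Without replicate 1 or replicate 2 it was 0.605% to 0.671%, and the ratio of miR-191 to miR-425 was 4.81 to 6.20. The scaling factor of 1.03 became 0.983 without miR-191, 1.06 without miR-186 and 1.05 without miR-361. The log2 ratio of miR-425-5p, -0.01 with mature reads, was 0.024 with all reads of the precursor or with mature plus star reads. The calls on star arms and arm shares, 1 each, stayed at miR-423 under all alternatives run. No paired analysis was possible because there is only 1 group. MiR-186-3p, with 3 reads, is too shallow for a test of its arm share.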
